A study of Mus musculus with 24 samples.

Results

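The making of cortical neurons is followed here through 10 genes in neural stem cells (NSCs) from mouse embryos: Neurog2, Eomes, Neurod1, Tbr1, Dcx, Tubb3, Map2, Stmn2, Elavl3 and Elavl4. In the deposited table they were found by symbol, and 9 of the 10 were among the 14922 genes of the deposited table. Eomes was not listed there and has no value here. The cells were female cortical NSCs derived at E14.5, grown as a monolayer in medium with EGF and FGF for fewer than 10 passages, and sequenced as poly(A) RNA. In the first strain, FVB/NJ, cells were Smchd1+/+ (FVB wild type) or Smchd1 MommeD43/MommeD43, an allele from an ENU screen (FVB MommeD43). In the second, C57BL/6J, all cells carried a fusion of Smchd1 to GFP, and were either labelled Smchd1+/+ (B6GFP wild type, which the study calls homozygous for the fusion) or carried the MommeD43 change made by CRISPR editing (B6GFP MommeD43). Strain and GFP fusion cannot be told apart. Each group is named below by strain and allele, and each cell line by its replicate number. Some B6GFP lines of different genotype share a label prefix.

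A dividing NSC becomes a neuron in ordered steps. The basic helix-loop-helix factors Neurog2 and then Neurod1 commit the cell, with the T-box factors Eomes in intermediate progenitors and Tbr1 in new deep-layer neurons. The cytoskeleton is then rebuilt around Dcx, Tubb3, Map2 and Stmn2, while the neuronal RNA-binding proteins Elavl3 and Elavl4 stabilise and splice neuronal transcripts. Growth with EGF and FGF is used to keep NSCs dividing, so a rise of these genes can mean more cells that have left that state, or more RNA per cell. Map2 and Elavl4 had at least 8348 and 855 reads in every library here, so their presence alone does not mark such cells. Fewer cells of a type and less RNA per cell cannot be told apart in bulk RNA.

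The 24 labelled libraries fell into 3 batches. Both strains were sequenced in batch 1, whereas only FVB lines were in batch 2 and only B6GFP lines in batch 3. One column of FVB MommeD43 (replicate 3) and one of B6GFP MommeD43 (replicate 2), both of batch 1, equalled the mean of the other 5 columns of their group and were not used. That left 22 libraries: 6 of 5 lines in FVB wild type, 5 of 4 lines in FVB MommeD43, 6 of 4 lines in B6GFP wild type and 5 of 4 lines in B6GFP MommeD43. The deposited values are log2 CPM, the log of reads scaled to a fixed library total, from which the authors had removed batch differences gene by gene. Whole read counts were recovered from the steps between these values, and they gave between 31186961 and 52943010 reads in listed genes per batch 1 library, with 8044971 to 11131353 for batch 2 and 25359556 to 58332060 for batch 3. CPM below was computed from the recovered reads, scaled to 1000000 reads in listed genes, with no batch correction, and log2 CPM means the deposited value. The NSC label held against its markers: all 10 NSC and radial glia markers were listed, with a summed level of 5891 to 8736 CPM over the 22 libraries. Smchd1 itself stood between 63.3 and 193 CPM, and its change with MommeD43 did not pass the test in FVB (adjusted p = 0.942) or B6GFP (adjusted p = 1) by limma. MommeD43 is a point change, so the level of Smchd1 does not check that label.

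Promoter sequence was available for 9 of the 10 genes (RefSeq, GRCm38.p6) and not for Stmn2. The 250 bases before the start of transcription are printed for 3 genes: Neurod1 and Tubb3, which were high together in 1 library described below, and Elavl4, which was not high there. Capitals mark letters searched on both strands. The E-box form CAGATG, the E-box form CAGCTG and the E-box form CATATG can be bound by proneural helix-loop-helix factors, and CACNAG is the N-box. The letters CAGCACC come from the left part of the RE1 element, to which the neuronal repressor REST binds, and the letters GGACAG from its right part.
Neurod1, chr2:79456637-79456886, minus strand: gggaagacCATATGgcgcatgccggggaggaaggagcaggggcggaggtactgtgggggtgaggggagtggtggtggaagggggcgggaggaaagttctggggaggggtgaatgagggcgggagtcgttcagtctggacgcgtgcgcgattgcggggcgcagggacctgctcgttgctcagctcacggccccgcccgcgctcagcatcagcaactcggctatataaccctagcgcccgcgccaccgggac
Tubb3, chr8:123411303-123411552, plus strand: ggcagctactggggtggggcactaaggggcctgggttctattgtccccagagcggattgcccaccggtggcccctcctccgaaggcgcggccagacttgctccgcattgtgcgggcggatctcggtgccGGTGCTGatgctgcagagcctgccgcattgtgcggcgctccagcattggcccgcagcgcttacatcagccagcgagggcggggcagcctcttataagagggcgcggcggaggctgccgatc
Elavl4, chr4:110287528-110287777, minus strand: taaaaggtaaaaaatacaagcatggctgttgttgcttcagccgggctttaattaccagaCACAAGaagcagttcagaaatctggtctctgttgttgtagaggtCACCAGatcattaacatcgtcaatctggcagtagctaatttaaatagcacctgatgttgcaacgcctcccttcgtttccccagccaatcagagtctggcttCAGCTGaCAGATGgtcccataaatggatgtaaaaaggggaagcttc
The Elavl4 window, inside the span of the longest Elavl4 transcript, held the E-box CAGCTG directly before the E-box CAGATG with a single base between, and the N-box form at 2 places further upstream. CAGATG was found in the promoters of 1 gene of the 9 (Elavl4) and in 14.4% of 32851 mouse promoters of this length. CAGCTG was found for 2 genes (Elavl3 and Elavl4) and in 13% of all promoters. CATATG was found for Neurod1 alone among the 9 and in 3.46% of all promoters, and CAGCACC, read on the other strand, for Tubb3 alone and in 5.73%. CACNAG was found for 3 genes (Dcx, Elavl4 and Eomes) and in 36.7% of all promoters, and GGACAG for 2 (Map2 and Neurog2) and in 18.7%. No match was found for Tbr1. The gene counts take a match in any promoter of a gene, whereas the percentages are over promoters. Per promoter, of 13 for the 9 genes, CAGATG was found in 3, CAGCTG in 3 and CATATG in 1. CAGCACC was found in 1, CACNAG in 6 and GGACAG in 2. Matches are letters only and were not tested for binding.

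In the GRCm38.p6 annotation, Neurog2 lies at chr3:127632733-127635636 and Stmn2 at chr3:8509527-8561604, Neurod1 at chr2:79452637-79456636 and Tbr1 at chr2:61802863-61814114. Dcx lies at chrX:143855842-143933396, Tubb3 at chr8:123411553-123422015 and Map2 at chr1:66175202-66442583. Elavl3 lies at chr9:22015005-22052146 and Elavl4 at chr4:110203737-110351939. Per kilobase of exon, the order of the 9 genes by their median over 22 libraries was Map2 (47.0 CPM per kb), Elavl4 (9.54), Tubb3 (4.90), Elavl3 (3.47), Dcx (0.633), Neurod1 (0.188), Neurog2 (0.0572), Tbr1 (0.0457) and Stmn2 (0.0175). Map2 ran from 34.1 to 70.4 CPM per kb and did not overlap Elavl4, at 6.82 to 21.4. Elavl4 and every later pair of neighbours in this order overlapped in range. Map2, whose protein binds microtubules in dendrites, had 8348 to 39255 reads per library and Elavl4 855 to 3262, while the commitment factors and Stmn2 had few reads in most libraries.

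**Figure D1:**
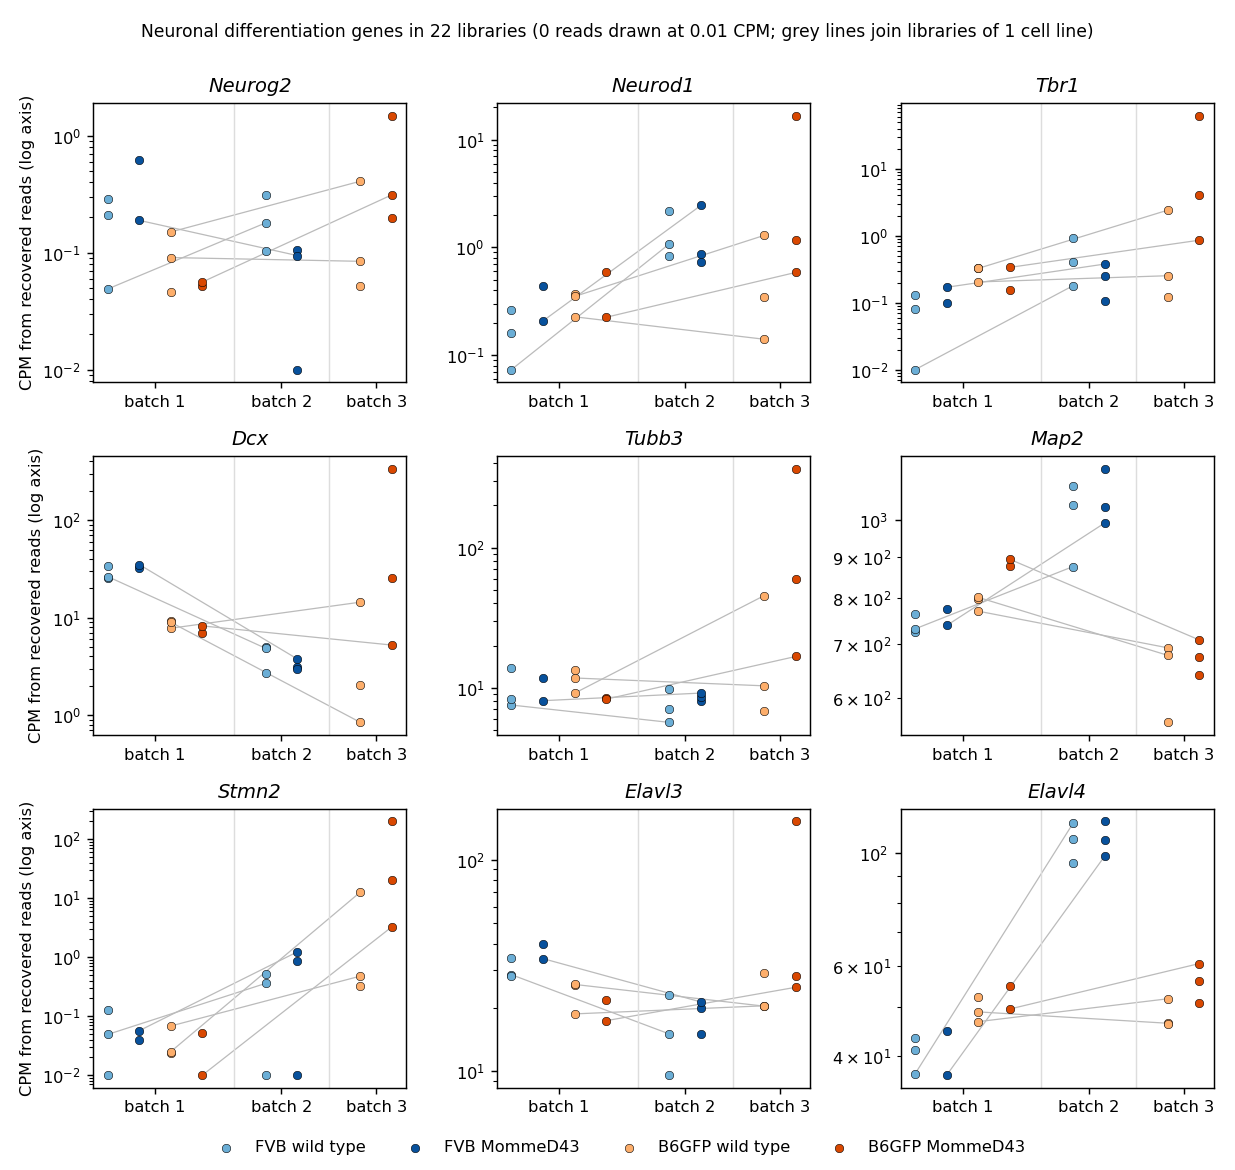
Level of each listed gene in 22 libraries, in CPM from recovered reads on a log axis, by batch and group, with 0 reads drawn at 0.01 CPM. Points are libraries and grey lines join libraries of 1 cell line. B6GFP MommeD43 replicate 2 in batch 3 is the highest point for 7 of the 9 genes, and Map2 and Elavl4 are the exceptions.

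The commitment factor Neurog2, a basic helix-loop-helix protein that starts the glutamatergic programme, was close to absent. Its reads per library numbered 2 to 31 for batch 1, 0 to 3 for batch 2 and 3 to 86 for batch 3. In FVB wild type it stood at 0.289, 0.0489 and 0.211 CPM in batch 1 and at 0.103, 0.308 and 0.18 CPM in batch 2. FVB MommeD43 gave 0.617 and 0.189 CPM, and then 0.104, 0 and 0.0945 CPM, so its groups overlapped in both batches. A count of 0 in that library allows up to 0.373 CPM (3 reads). In B6GFP, wild type gave 0.0465, 0.15 and 0.0908 CPM in batch 1 and 0.408, 0.0843 and 0.0514 CPM in batch 3. B6GFP MommeD43 gave 0.0517 and 0.0562 CPM, and then 0.197, 1.48 and 0.313 CPM, where 1.48 CPM was the replicate 2 library.

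Neurod1, which acts after Neurog2 to hold the neuronal fate, was also low. It ran from 0.0733 to 0.594 CPM over the 10 libraries of batch 1 and from 0.731 to 2.46 CPM over the 6 of batch 2. In batch 3, B6GFP wild type gave 1.29, 0.141 and 0.343 CPM and B6GFP MommeD43 gave 1.18, 16.7 and 0.586 CPM. The 16.7 CPM came from 969 reads (95% exact binomial interval 15.6 to 17.7 CPM, counting error only), and every other library held 3 to 38 reads.

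Tbr1, the T-box factor of early-born deep-layer neurons, spanned the widest range of the factors. FVB wild type had 0.128, 0 and 0.0793 CPM in batch 1 and 0.927, 0.411 and 0.18 CPM in batch 2. FVB MommeD43 had 0.0995 and 0.17 CPM in batch 1 and 0.104, 0.249 and 0.378 CPM in batch 2. B6GFP wild type had 0.326, 0.326 and 0.204 CPM in batch 1 and 2.42, 0.253 and 0.12 CPM in batch 3. B6GFP MommeD43 had 0.155 and 0.337 CPM in batch 1 and 4.02, 61.9 and 0.86 CPM in batch 3. In batch 1, FVB stayed at or under 0.17 CPM and B6GFP at or above 0.155 CPM, so the strains overlapped slightly. In batch 3 the genotypes overlapped, because 2.42 CPM in a wild-type library exceeded 0.86 CPM in a MommeD43 library.

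Dcx, a microtubule-binding protein of migrating neurons, differed by strain in batch 1. FVB libraries stood at 25.2, 26.4 and 34.2 CPM in wild type and 32.0 and 35.1 CPM in MommeD43. B6GFP libraries stood at 9.28, 7.79 and 8.97 CPM in wild type and 6.90 and 8.23 CPM in MommeD43. The lowest FVB library was above the highest B6GFP library, and within each strain the genotypes overlapped. In batch 2, FVB fell to between 2.68 and 5.04 CPM from 24 to 54 reads. In batch 3, B6GFP wild type gave 14.4, 0.843 and 2.04 CPM and B6GFP MommeD43 gave 25.4, 338 and 5.24 CPM. The 338 CPM came from 19694 reads (95% interval 334 to 343 CPM).

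Tubb3, the neuronal class of beta-tubulin, lay between 5.66 and 13.8 CPM in the 16 libraries of batches 1 and 2. Batch 3 spread more widely, with 45.4, 10.3 and 6.81 CPM in B6GFP wild type and 59.4, 366 and 16.7 CPM in B6GFP MommeD43. Stmn2, a tubulin-binding protein of growth cones, was nearly silent outside batch 3, with 0 to 4 reads per library in batch 1 and 0 to 13 in batch 2. In batch 3 every library had reads, at 12.7, 0.478 and 0.326 CPM in B6GFP wild type and 20.1, 202 and 3.28 CPM in B6GFP MommeD43. Map2 was the steadiest, with batch 1 libraries at 725 to 893 CPM, batch 2 libraries at 875 to 1158 CPM and batch 3 libraries at 560 to 709 CPM. In batch 1 both B6GFP MommeD43 libraries (875 and 893 CPM) were above all 3 B6GFP wild-type libraries (798, 770 and 801 CPM).

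Elavl3 lay at 28.1 to 39.8 CPM in the 5 FVB libraries of batch 1 and at 17.3 to 25.7 CPM in the 5 B6GFP libraries, without overlap. In batch 2 it was 9.58 to 22.9 CPM. In batch 3 it was 20.4, 20.3 and 29.1 CPM in B6GFP wild type and 28.2, 152 and 24.9 CPM in B6GFP MommeD43. Elavl4 had the opposite strain order in batch 1, with FVB at 43.5, 36.98, 41.1, 44.8 and 36.8 CPM and B6GFP at 52.3, 46.8, 48.9, 54.9 and 49.5 CPM. In batch 3, Elavl4 stayed within 46.2 to 60.8 CPM, and its level in replicate 2 of B6GFP MommeD43, 56.1 CPM, was inside that range. Dcx, Elavl3 and Elavl4, 3 of the 9 genes, did not overlap between strains in batch 1, against 26.3% of all genes (11.6% with B6GFP above and 14.7% with B6GFP below).

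The batches differed more than the groups did for several of these genes, and cell lines sequenced in both batches showed it directly. In FVB wild type replicate 2, Dcx went from 26.4 CPM in batch 1 to 4.85 CPM in batch 2 while Elavl4 went from 36.98 to 114 CPM. In FVB MommeD43 replicate 2 the same genes went from 35.1 to 3.78 CPM and from 36.8 to 98.6 CPM. In B6GFP wild type replicate 2, Stmn2 went from 1 read (0.0250 CPM) in batch 1 to 374 reads (12.7 CPM) in batch 3, and Tubb3 from 9.14 to 45.4 CPM. In B6GFP wild type replicate 3, Dcx fell from 8.97 to 0.843 CPM between the same batches while Tubb3 moved only from 11.7 to 10.3 CPM. What differed between batches in culture or preparation is not given in the sources used here, and its part in these shifts was not tested.

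The batch correction in the deposited values shifts each gene by 1 amount per batch, whatever a single line did. The log2 CPM given to 0 reads of Stmn2 was 5.70 lower in batch 3 than in batch 1, a drop larger than that of all but 43 of 14921 genes. For Tbr1 it was 2.26 lower and for Tubb3 1.56 lower, where the middle 90% of genes ran from -1.31 to 0.99. In batch 2 the largest shifts among the 9 genes were 3.04 upward for Dcx and 2.21 downward for Neurod1. As a result the B6GFP wild-type library with 374 Stmn2 reads was listed at -1.01 log2 CPM, between FVB libraries that held 5 reads (-1.27) and 7 reads (-0.58). Deposited levels of these genes can be compared only within a batch or in a fit with batch as a term.

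**Figure D2:**
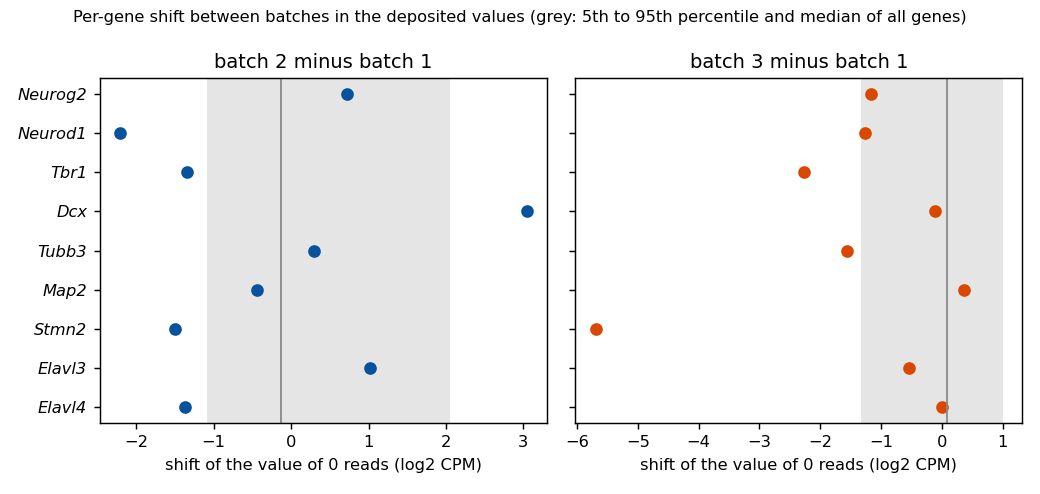
Shift, per gene, of the deposited log2 CPM of 0 reads in batch 2 and in batch 3 relative to batch 1. Points are the 9 genes, the grey band spans the 5th to 95th percentile of all genes and the grey line is their median. Outside the band lie Neurod1, Tbr1, Dcx (3.04), Stmn2 and Elavl4 in batch 2, and Tbr1, Tubb3 and Stmn2 (-5.70) in batch 3.

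One library stood apart at the high end. B6GFP MommeD43 replicate 2 of batch 3 was the highest of the 6 libraries of its batch for 7 of the 9 genes, against 28.7% of all genes for the same library. The 7 were Neurog2, Neurod1, Tbr1, Dcx, Tubb3, Stmn2 and Elavl3. At the low end of the batch were wild-type libraries. B6GFP wild type replicate 4 was lowest for 6 of the 9 genes, against 29.8% of all genes for that library. B6GFP wild type replicate 3 was lowest for 3, against 22.9%. Relative to the median of the other 5 libraries, deposited Tbr1 was 6.07 log2 units higher, Dcx 6.00, Stmn2 5.92, Neurod1 4.69, Tubb3 4.45, Elavl3 2.61 and Neurog2 2.57, while Elavl4 was 0.15 higher and Map2 0.0012 higher. The second library of this line, in batch 1, was one of the 2 columns not used, so whether the line or the library is high was not tested.

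Other neuronal genes were high in the same library. It was the highest of 6 for 13 of 19 listed proneural and commitment factors, 14 of 18 cortical subtype factors, 18 of 22 cytoskeleton genes, 14 of 16 RNA-binding and splicing genes and 16 of 21 synapse and vesicle genes. It was the lowest of 6 for 3 of the commitment factors and 1 of the synapse genes, against 13.9% of all genes, and for 0 genes of the other lists here. Named after their values were seen, those 3 commitment factors were Ebf3 (-2.51 log2 units), Ebf1 (-2.33) and Myt1 (-0.96). The median gene of these lists stood 0.93, 1.48, 1.28, 2.68 and 1.57 log2 units above the median of the other 5 libraries, beside 0.0919 over all genes. Named after their values were seen, Neurod6 and Neurod2, which follow Neurod1 in cortical neurons, stood at 134 and 74.2 CPM against 10.4 and 4.26 CPM in the next highest library of the batch, and Fezf2, a factor of subcerebral projection neurons, at 28.9 against 1.30 CPM. Gad2, an enzyme that makes GABA, was at 2.22 CPM against 0.634 CPM, while its partner Gad1, at 6.55 CPM, was below the 13.7 CPM of another library of the batch. The NSC markers went both ways, with 3 of 10 highest and 3 lowest of the 6 libraries, against 28.7% and 13.9% of all genes. Their median was -0.0263 log2 units and their summed level 6385 CPM, against 5891 to 8473 CPM in the rest of batch 3. Proliferation markers had a median of 0.25 and summed to 3516 CPM, against 2201 to 3336 CPM.

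Markers of a non-neural type moved with it as well. Of 10 endothelial and mural markers 9 were listed, and 8 were highest of the 6 libraries of the batch in this library, against 28.7% of all genes. They summed to 26.5 CPM there against 1.94 to 6.68 CPM in the other 21 libraries. Named after their values were seen, the endothelial cadherin Cdh5 had 246 reads (4.23 CPM) and Pecam1 311 reads (5.35 CPM). Astrocyte markers summed to 656 CPM, within the 654 to 942 CPM of the rest of the batch, and of 8 microglia markers only P2ry12 was listed, at 0.877 CPM. Of 10 oligodendrocyte lineage markers 3 were highest and 2 lowest, against 28.7% and 13.9% of all genes, with a median of -0.23 log2 units. They summed to 1607 CPM, against 1412 to 2378 CPM in the rest of the batch. The part of other cell types in the neuronal levels of this library was not tested.

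**Figure D3:**
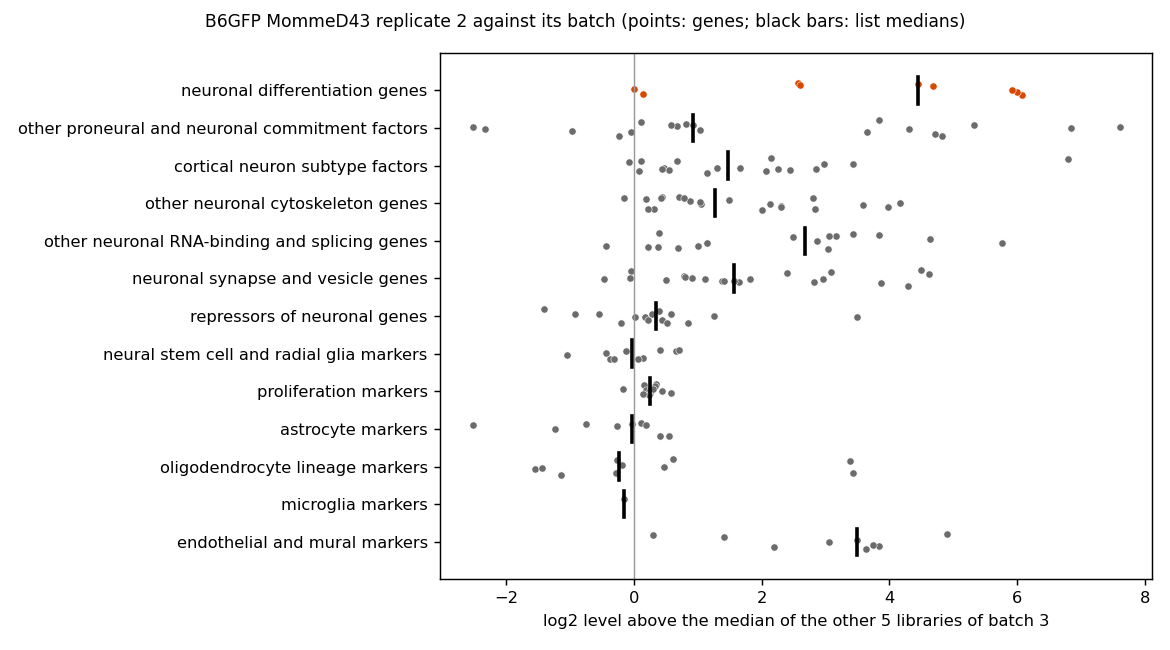
B6GFP MommeD43 replicate 2 of batch 3 against the median of the other 5 libraries of its batch, in deposited log2 CPM, for every listed gene of 13 lists. Points are genes and black bars are list medians. The neuronal differentiation genes (orange) have a median of 4.45, and endothelial and mural markers 3.50, with all other list medians at or below 2.68.

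The first comparison asked whether the MommeD43 allele changes these genes in FVB. In the limma fit across all 14922 genes, with batch as a term, 0 of 9 genes passed an adjusted p under 0.05, where 0.0737% of all genes did. At an unadjusted p under 0.05 there was 1 of 9, against 6.86% of all genes, and voom on the recovered reads also called 0. All 9 fitted log2 changes were above 0, with a median of 0.37 beside 0.0131 over all genes, but with equal library weights Neurog2, Tbr1 and Dcx were below 0, as was Elavl4 with each library centred on its median. Those of the commitment factors were 0.56 ± 0.42 (SE) for Neurog2, 0.68 ± 0.37 for Neurod1 and 0.65 ± 0.45 for Tbr1, each less than 2 SE from 0. Elavl3 had the smallest p (0.37 ± 0.17, adjusted p = 0.679 by limma). Stmn2 was at 0.42 ± 0.54, Dcx at 0.16 ± 0.34 and Tubb3 at 0.18 ± 0.25. The narrowest intervals were those of Map2 (95% interval -0.0645 to 0.11) and Elavl4 (-0.12 to 0.13).

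Fits within a batch gave all libraries equal weight, unlike the full fit. Within batch 1 the FVB change was 0.90 for Neurog2, 0.77 for Neurod1, 0.70 for Tbr1 and 0.24 for Dcx. Within batch 2 it was -1.05, -0.089, -0.77 and -0.29, so the direction of these 4 genes did not hold in both batches. Elavl3 was 0.29 and 0.31 in the 2 batches, with adjusted p = 1 in each by limma. No gene of the 9 had non-overlapping groups in either FVB batch, against 16.1% of all genes in batch 1 and 5.63% in batch 2. Without replicate 2 of FVB MommeD43, Neurog2 (1.69, adjusted p = 0.0147), Neurod1 (1.21, adjusted p = 0.0358) and Elavl4 (0.20, adjusted p = 0.0149) passed in limma, while 981 genes in all did, against 11 with that line.

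In B6GFP, where the MommeD43 change was made by editing, 0 of 9 genes passed, as did 0% of all genes, and 0 of 9 reached an unadjusted p under 0.05, against 2.14% of all genes. Voom on the reads called 0 of 9. Map2, at 0.11 ± 0.055, had the smallest p (adjusted p = 1, limma). Within batch 1, Map2 was the one gene of the 9 whose MommeD43 libraries were all above wild type and Tubb3 the one whose MommeD43 libraries were all below, against 16.5% of all genes without overlap and 8.09% with MommeD43 higher, and the change of Map2 there was 0.16 (adjusted p = 1, limma). The other fitted changes were -0.30 ± 0.54 for Neurog2, 0.43 ± 0.48 for Neurod1, 0.039 ± 0.59 for Tbr1, 0.21 ± 0.44 for Dcx, -0.12 ± 0.33 for Tubb3, 0.34 ± 0.70 for Stmn2, 0.033 ± 0.22 for Elavl3 and 0.10 ± 0.078 for Elavl4. The intervals of Neurog2, Neurod1, Tbr1, Dcx and Stmn2 reached beyond 1 log2 unit on at least one side of 0.

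The size of these B6GFP values moved with the library weights. Quality weights in the fit gave replicate 2 of B6GFP MommeD43 in batch 3 a weight of 0.158, the second lowest of 22 after 0.101 for B6GFP wild type replicate 4 of batch 3. With equal weights the log2 change was 2.49 for Stmn2, 2.10 for Dcx, 2.10 for Tbr1, 1.53 for Neurod1 and 1.25 for Tubb3 (adjusted p = 0.995 for each by limma). Within batch 3 alone, also with equal weights, it was 4.10 for Stmn2, 3.57 for Dcx, 3.55 for Tbr1, 2.30 for Neurod1 and 2.28 for Tubb3 (adjusted p = 1). Within batch 1, which does not hold that library, it was -0.23, -0.20, -0.22, 0.22 and -0.43, again with equal weights. Without the line the fitted change of Tbr1 was -0.077 and that of Elavl3 -0.017 (adjusted p = 1). Leaving out other lines of B6GFP MommeD43 changed signs too. Without replicate 3, Dcx was -0.0080 and Tbr1 -0.38, and without replicate 1, Stmn2 was -0.18 and Neurod1 -0.17. No gene of the 9 separated the genotypes in batch 3, where 4.26% of all genes did. The difference of the MommeD43 effect between strains was tested in the same fit, and 0 of 9 genes passed, as did 0% of all genes. None of the 9 reached an unadjusted p under 0.05 there, against 3.07% of all genes.

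**Figure D4:**
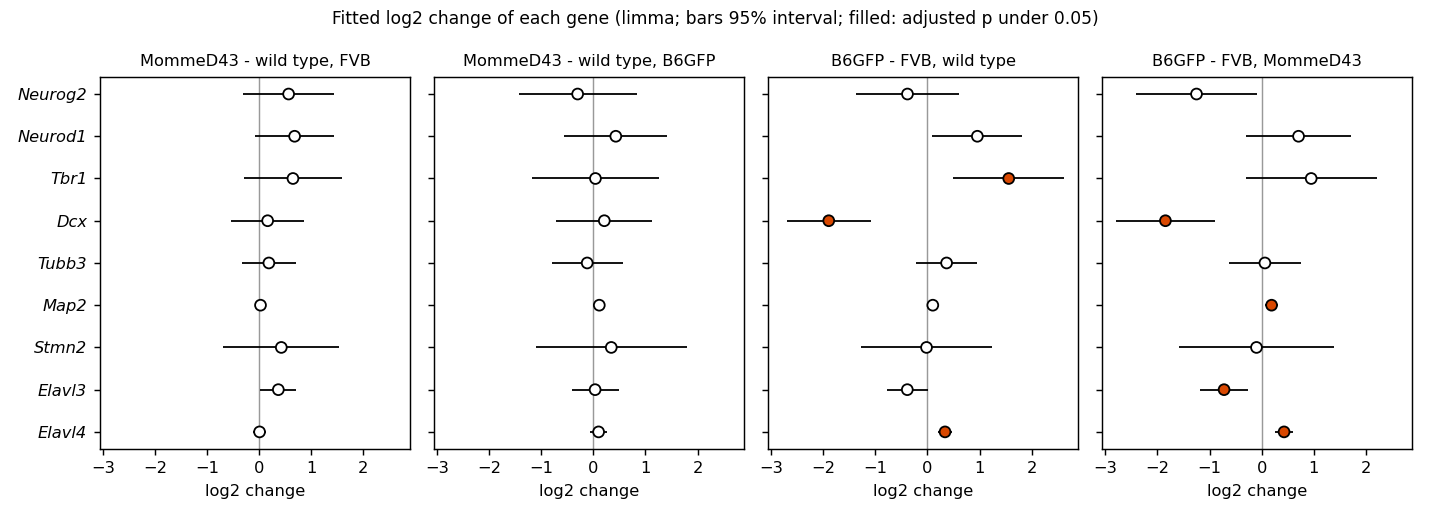
Fitted log2 change of each gene in 4 comparisons, with 95% intervals from limma over 22 libraries. Filled points had an adjusted p under 0.05, which none did between genotypes, 3 did between strains in wild type (Tbr1, Dcx and Elavl4) and 4 in MommeD43 (Dcx, Map2, Elavl3 and Elavl4).

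Between strains the genes moved in both directions. In wild type, 3 of 9 passed, against 41.1% of all genes. Dcx was lower in B6GFP than in FVB (log2 change -1.90 ± 0.39, adjusted p = 0.000525, limma). Elavl4 was higher by a smaller amount (0.34 ± 0.068, adjusted p = 0.000505, limma), and Tbr1 was higher (1.56 ± 0.51, adjusted p = 0.0192, limma). The Tbr1 call rests on few reads, 0 to 14 per library in batch 1, and was lost without replicate 2 of FVB wild type (adjusted p = 0.373, limma), without replicate 1 or 2 of B6GFP wild type (0.0717 and 0.118), with equal weights (0.913), with log2(CPM + 1) (0.131), over line means (0.323) and by voom (0.13). Neurod1 was at 0.96 ± 0.42 (adjusted p = 0.0707), Elavl3 at -0.39 ± 0.19 (0.106), Map2 at 0.10 ± 0.048 (0.0959) and Tubb3 at 0.37 ± 0.29 (0.323), and none passed in limma. Map2 passed with each library centred on its median (0.17, adjusted p = 0.0115, limma) and Neurog2 over line means (-1.89, 0.0151). Neurod1 passed without replicate 3 of FVB wild type (1.21, 0.0392) and without replicate 2 of B6GFP MommeD43 (1.01, 0.0435).

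In MommeD43, 4 of 9 genes passed between strains, against 34.4% of all genes. Dcx was again lower in B6GFP (-1.85 ± 0.45, adjusted p = 0.00344, limma) and Elavl4 again higher (0.43 ± 0.080, adjusted p = 0.000309). Elavl3 was lower (-0.72 ± 0.22, adjusted p = 0.0155) and Map2 higher (0.19 ± 0.056, adjusted p = 0.0119). Tbr1, at 0.95 ± 0.60, and Neurog2, at -1.25 ± 0.56, did not pass (adjusted p = 0.234 and 0.0883, limma). Neurog2 passed without replicate 2 of FVB MommeD43 (-2.33, adjusted p = 0.00194, limma), without replicate 2 of FVB wild type (-1.36, 0.031), without replicate 3 of B6GFP MommeD43 (-1.34, 0.0119) and over line means (-2.22, 0.00172). Tbr1 passed without replicate 1 of B6GFP MommeD43 (1.37, adjusted p = 0.0472), and Neurod1 without replicate 3 (1.04, 0.015). With replicate 3 of B6GFP wild type left out, Neurod1 and Elavl3 also passed in wild type, making 5 of 9. The wild-type and MommeD43 strain comparisons use different libraries but 1 estimate of batch and spread. With equal weights only Elavl4 in MommeD43 passed (0.38, adjusted p = 0.0277, limma), and Dcx in MommeD43 went to -0.36 (adjusted p = 0.911), Elavl3 to -0.35 (0.772) and Map2 to 0.14 (0.452). In wild type, equal weights put Dcx at -2.53 (adjusted p = 0.141, limma) and Elavl4 at 0.26 (0.0982).

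Batch 1 is the one batch that holds both strains, so the strain values of the full fit rest on it by design and are not independent of those given here. Within batch 1, Dcx was at -1.70 in wild type and -2.14 in MommeD43 (adjusted p = 0.000277 and 0.00041, limma), Elavl3 at -0.38 and -0.93 (0.122 and 0.0138) and Elavl4 at 0.28 and 0.36 (0.0598 and 0.055). Tbr1 in wild type was at 1.51 (0.039) and Map2 in MommeD43 at 0.22 (0.0201). These fits within batch 1 gave all libraries equal weight, whereas the full fit used quality weights. Other values differed from the full fit in MommeD43, with Neurog2 at -1.82, Neurod1 at 0.24, Tbr1 at 0.60 and Tubb3 at -0.21. The full fit gave -1.25, 0.71, 0.95 and 0.064. Libraries and weights both differ between these fits, and the part of each was not tested. Of all genes, 1259 passed between strains in wild type with equal weights over all batches, against 6131 with quality weights.

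The other neuronal genes, from lists of roles around these 10, were counted in the same fit. With MommeD43, 0 of 19 commitment factors, 0 of 18 subtype factors, 0 of 22 cytoskeleton genes, 0 of 16 RNA-binding genes, 0 of 21 synapse genes and 0 of 16 repressors of neuronal genes passed in FVB, and the same counts of 0 held in B6GFP (limma), where 0.0737% and 0% of all genes passed. At an unadjusted p under 0.05 the FVB counts were 4, 0, 5, 2, 1 and 1, and the B6GFP counts were 1, 0, 0, 0, 0 and 0, against 6.86% and 2.14% of all genes.

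Between strains in wild type, 17.9% of all genes passed as higher in B6GFP and 23.2% as lower, and centring each library on its median turned that split from 2676 higher and 3455 lower to 3608 and 2544. Of the 19 commitment factors 3 rose and 6 fell in B6GFP relative to FVB. Ebf3, a helix-loop-helix factor of differentiating neurons, rose by 1.85 ± 0.22 (adjusted p = 1.43e-06, limma), and the antiproliferative gene Btg2 was at -0.88 ± 0.12. Of the subtype factors 3 rose and 2 fell, with the GABA enzyme Gad2 at -4.06 ± 0.32 and Bcl11b, a factor of deep-layer projection neurons, at 1.09 ± 0.19. Of the cytoskeleton genes 8 rose and 4 fell, with Tagln3 at 1.90 ± 0.20 and Tubb4a at -1.97 ± 0.20. Of the RNA-binding genes 4 rose and 3 fell. Rbfox1, a neuronal splicing factor, was at 2.54 ± 0.48, Elavl2, a paralogue of Elavl3 and Elavl4, at 0.55 ± 0.11 and Khdrbs2 at -1.72 ± 0.34. Of the synapse genes 2 rose and 4 fell, with the vesicle calcium sensor Syt1 at 1.74 ± 0.32, Syn2 at -0.75 ± 0.12 and Cplx2 at -0.54 ± 0.10. With equal weights the calls of Btg2, Bcl11b, Rbfox1, Elavl2, Syt1, Syn2 and Cplx2 were lost in wild type. Medians of these lists ran from -0.0714 to 0.17, beside -0.0215 over all genes.

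Repressors of the neuronal programme, which act against the commitment factors in NSCs, were counted in the same way. Of 16, 3 rose and 9 fell in B6GFP in wild type, with a median of -0.36, and 2 rose and 9 fell in MommeD43, with a median of -0.57, where 14.7% of all genes passed as higher and 19.6% as lower. Hes5, an effector of Notch signalling, was at -2.66 ± 0.32 in wild type and -3.21 ± 0.38 in MommeD43, and Hes1 at -1.41 ± 0.16 and -1.55 ± 0.19 (adjusted p between 4.65e-07 and 1.83e-06, limma). With equal weights the wild-type call of Hes1 was lost (-0.96, adjusted p = 0.0543, limma). Glial markers differed between strains too, with 8 of 9 astrocyte markers lower in B6GFP and none higher in wild type, against 23.2% and 17.9% of all genes. Oligodendrocyte lineage markers were mixed in wild type. Of 10, 4 passed as lower, among them the myelin gene Mbp at -4.49 ± 0.36, and 2 as higher. The part of glial markers in the strain values of Dcx, Elavl3 and Elavl4 was not tested.

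Across libraries, 7 of the 9 genes varied together and Map2 and Elavl4 did not, a split made after the values were seen. With group means taken out, the 21 pairs among the 7 had Pearson r of 0.41 to 0.93 over 22 libraries, highest for Dcx with Tubb3 (0.93) and Tbr1 with Tubb3 (0.92). The 15 pairs with Map2 or Elavl4 had r of -0.23 to 0.38. Without replicate 2 of B6GFP MommeD43, the 21 pairs ran from -0.11 to 0.84 over 21 libraries, with Dcx and Tubb3 at 0.84, Tbr1 and Tubb3 at 0.83, and Elavl3 with Tbr1 going from 0.60 to 0.0018. These r values are descriptions, since libraries share lines and batches and the corrected values keep the differences in spread between batches. Likeness to the mean standardised level of the 9 was taken on deposited values with no group or batch means taken out, so it also holds those differences. The 5 other genes most like it were C230057M02Rik (r = 0.954), Gm13303 (0.953), Dpysl5 (0.939), Hecw1 (0.936) and Cntnap5c (0.936) over 22 libraries. Over 21 without that library their r was 0.822 to 0.886.

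**Figure D5:**
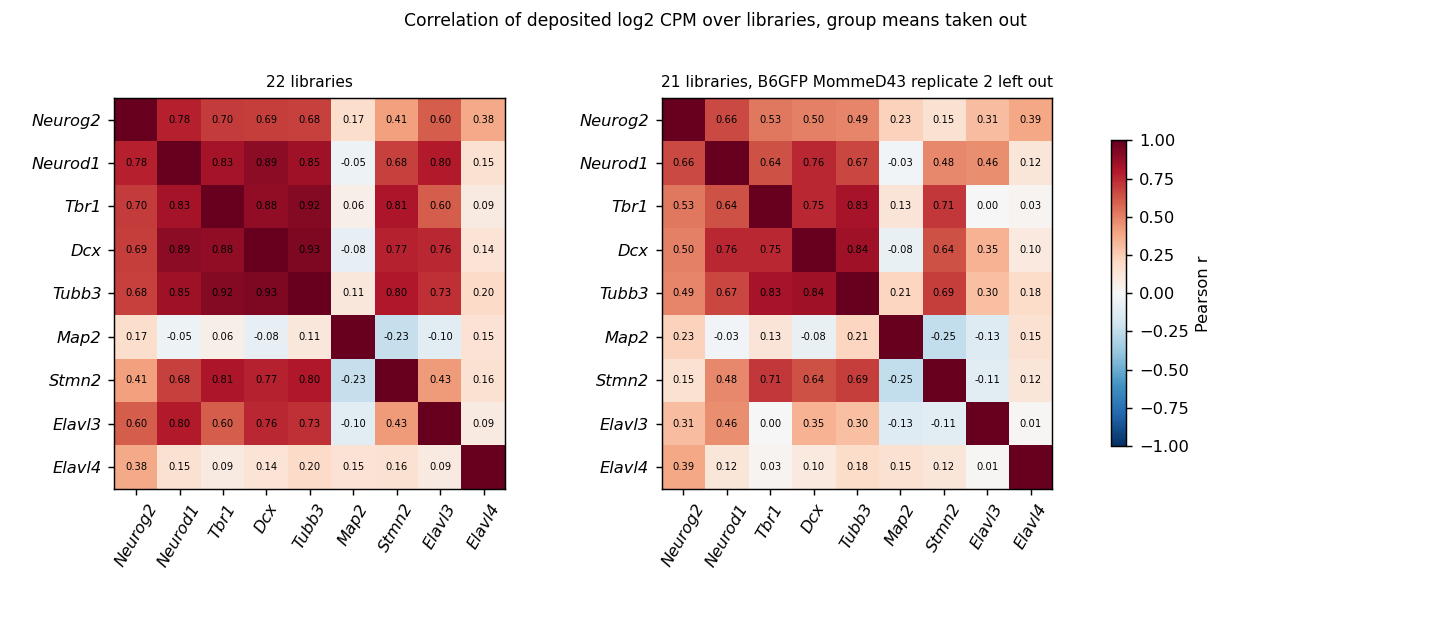
Pearson r between the 9 genes in deposited log2 CPM with group means taken out, over 22 libraries (left) and over 21 without B6GFP MommeD43 replicate 2 (right). Dcx with Tubb3 is 0.93 on the left and 0.84 on the right, and the rows of Map2 and Elavl4 stay pale in both.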

How the data were processed

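Poly(A) RNA of 24 NSC libraries was sequenced by the authors as single-end reads. Per the submitters' processing notes, Trim Galore 0.4.4, HISAT2 2.0.5, limma 3.40.6 and the GRCm38.p6 build were used. The deposited values are log2 CPM of 14922 genes (247 with no symbol), from which the authors had removed batch as an additive term per gene. That term cancels in a fit with batch and within a batch, but not between levels of different batches. The table holds no fold changes or p-values of the authors' comparisons.

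Of the 24 columns, 2 equalled the mean of their group mates and were left out. Whole reads were recovered from the steps between deposited values (tolerance 0.01 reads, 14921 of 14922 genes solved). CPM was reads over the sum of listed genes, and exact binomial intervals and floors of 3 reads cover counting error only. Recovery and fit were tested on simulated data.

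Groups were compared in 1 limma fit (limma 3.58.1, R 4.3.3) on the deposited log2 values, with group and batch as terms, quality weights per library, cell line as a block (consensus correlation 0.0828) and a mean-variance trend. P-values were two-sided and Benjamini-Hochberg adjusted over 14922 genes, with a threshold of 0.05. They measure the spread between these lines and libraries. Fits within a batch used the libraries of that batch with equal weights. Because the table holds no counts as deposited, voom on recovered reads was an alternative chosen after seeing the data, as was leaving out batch 3. The other alternatives were equal weights, all 24 columns, genes above 1 CPM in at least 4 libraries, log2(CPM + 1), median centring, no trend, other blocks, line means, and each line left out.

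The 10 genes and the lists were chosen with earlier results of these data known. Genes named from a list were among the 3 of lowest p that passed in a comparison, besides the 5 genes most correlated with the mean of the 9. Other genes are said to be named after their values were seen. Promoter sequences were from RefSeq.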

Additional observations from a re-analysis of the deposited data

Results flagged for a closer look

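Within B6GFP MommeD43 (n = 5 libraries), replicate 2 of batch 3 lay far above the others for 3 genes in deposited log2 CPM, by Dixon's criterion for the gap to the nearest library. Neurog2 stood at -1.177 there, with the next library at -3.213 and a gap of 0.793 of the group's range. Neurod1 stood at 3.495, with the next at 0.1186 and a gap of 0.72 of the range. Elavl3 stood at 5.495, with the next at 3.249 and a gap of 0.861 of the range. The 5 libraries span batches 1 and 3, and the nearest library was of batch 1 for Neurod1 and Elavl3, so these gaps also hold the per-batch shift of the deposited values. Chance gives about 1 such library in 20 groups, and 36 combinations of gene and group were examined. Dcx, Tbr1, Tubb3 and Stmn2 were highest in the same library without meeting the criterion.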

How the results depend on the processing

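Depth limits Neurog2, Neurod1, Tbr1 and Stmn2, which had 0 to 31 reads in the libraries of batches 1 and 2. The cause of each change below was not tested, except that the 2 columns equal to group means shrink the spread by construction.

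The number of the 9 genes past the threshold was 0 for MommeD43 in FVB, 0 in B6GFP, 0 for their difference, 3 between strains in wild type and 4 in MommeD43. Leaving out each line gave 0 to 3, 0 to 0, 0 to 0, 2 to 5 and 4 to 6. With equal weights the strain counts were 0 and 1, and voom without quality weights gave 0 and 1. All 24 columns gave 2 in B6GFP (Dcx 1.13, adjusted p = 0.0477, and Map2 0.12, adjusted p = 0.0432, limma) and 9 between strains in MommeD43. Over all genes, all 24 columns called 510, 480, 61, 6440 and 13991 genes in the 5 comparisons, against 11, 0, 0, 6131 and 5126. Voom with quality weights called 77 genes in FVB and 2 in B6GFP. Without replicate 1 or 3 of B6GFP MommeD43, 107 and 139 genes passed in B6GFP. Centring each library on its median turned the split of strain calls from 2676 higher and 3455 lower to 3608 and 2544 in wild type, and from 2199 and 2927 to 3013 and 2265 in MommeD43.

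Several log2 changes that had not passed changed sign. With equal weights, FVB Neurog2 was -0.2343, Tbr1 -0.255 and Dcx -0.06913, B6GFP Neurog2 0.7119 and Tubb3 1.252, Tubb3 between strains in wild type -0.3117 and Stmn2 in MommeD43 1.306. With all 24 columns, B6GFP Neurog2 was 0.2097 and Tubb3 0.5193, and Stmn2 between strains 0.03196 in wild type and 0.8065 in MommeD43. With line means, B6GFP Neurog2 was 0.006246 and Tbr1 -0.1478, and Tubb3 between strains in MommeD43 -0.2995. Centring gave Elavl4 -0.01562 in FVB and Stmn2 0.06019 between strains in wild type, and log2(CPM + 1) gave Stmn2 0.004459 in MommeD43. Voom with quality weights gave B6GFP Tubb3 0.1234 and Stmn2 0.6 between strains in MommeD43. Voom without them gave B6GFP Neurog2 1.497 and Tubb3 1.821, Neurod1 -0.1225, Tubb3 -0.7189 and Tbr1 -0.1805 between strains in wild type (Tbr1 had passed) and Stmn2 2.393 in MommeD43. Without batch 3, B6GFP Tbr1 was -0.2762, Dcx -0.1935, Stmn2 -0.1644 and Elavl3 -0.2338, and between strains Stmn2 was 0.09146 in wild type and Tubb3 -0.1375 in MommeD43.

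Leaving out single lines gave, in FVB, -0.101 to 1.691 for Neurog2, -0.09107 to 0.8811 for Tbr1, -0.01902 to 0.07336 for Map2 and -0.06769 to 0.1959 for Elavl4. In B6GFP it gave -0.5044 to 0.1332 for Neurog2, -0.1726 to 0.738 for Neurod1, -0.3809 to 0.5061 for Tbr1, -0.007958 to 0.3525 for Dcx, -0.2365 to 0.04739 for Tubb3, -0.1791 to 0.4741 for Stmn2 and -0.3193 to 0.1576 for Elavl3. Between strains it gave -0.2199 to 0.3263 for Stmn2 in wild type, and -0.2486 to 0.2136 for Tubb3 and -0.69 to 0.1172 for Stmn2 in MommeD43.

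With the replicate number as a block in place of the line, the counts of the 9 genes stayed at 0, 0, 0, 3 and 4, and 11, 2, 0, 6131 and 5229 of all genes passed. Same-numbered lines did not deviate together (correlations of -0.484 to 0.138), so the numbers were not read as a pairing. Labels of some B6GFP lines share a prefix across genotypes. Wild type replicates 1 and 2 share a prefix with MommeD43 replicate 4, and wild type replicate 3 with MommeD43 replicate 3. With the prefix as a block, 10, 2, 0, 5963 and 5127 of all genes passed. Whether lines of a shared prefix deviate together was not tested.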
